A study of Homo sapiens with 12 samples.

Results

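The comparison described here is formed by 6 of the 12 sequenced samples in the series, namely 3 from cells given doxycycline (Dox) for 24 h and 3 from cells not given Dox. It was defined by the sample titles alone, without reference to any measured level, and covers every gene in the count tables. All 6 samples were MCF10A, a human mammary epithelial cell line that is immortal but does not form tumours, transduced with an inducible TAZ-4SA. No Dox and 24 h Dox therefore shared the cell line, the transgene and the growth medium, which held horse serum, epidermal growth factor (EGF), hydrocortisone, cholera toxin, insulin, penicillin and streptomycin. The 24 h group received 0.05 µg/mL Dox, which switches the transgene on. The 6 remaining samples, at 48 and 72 h in the same dose, were used to estimate the spread and for a single comparison at the end. Whether the transduced cells were a clone, and whether replicates were separate cultures, is not given in the sources used here. Where replicates are not separate cultures, a p-value reflects no more than technical differences among them. Cells given Dox without the transgene, and No Dox cells kept for a further 24 h, were not analysed here, so the contributions of the transgene, the drug and the extra day cannot be told apart.

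TAZ, encoded by WWTR1, is a transcriptional co-activator at the end of the Hippo pathway. The kinases LATS1 and LATS2 phosphorylate TAZ and its relative YAP on serines, after which 14-3-3 proteins hold them in the cytoplasm and ubiquitin ligases mark them for breakdown. TAZ has no DNA-binding domain of its own and reaches DNA mainly through the TEAD transcription factors, often beside AP-1 factors. The 4SA form has alanine in place of serines that LATS kinases use, so that it escapes this restraint. In mammary epithelium TAZ is known for driving growth, migration and loss of epithelial features.

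The samples held 15534738 to 21850714 expected counts each, and 17887 to 19445 genes had at least 1 count. Levels are given as CPM (library-size and TMM-scaled counts), group values as mean ± SD with n = 3, and changes as log2 fold change of 24 h over No Dox from edgeR. WWTR1 was at 70.7, 69.5 and 75 CPM without Dox and 811, 943 and 907 CPM at 24 h, so the induced gene was high in each sample titled as induced and low in the others. Its effective length, the transcript length over which RSEM spreads the reads, was 3229 ± 253 nucleotides without Dox and 1091 ± 51.1 at 24 h (exact permutation p = 0.1, two-sided, the smallest possible with 3 against 3), and its level per length was 26.6 ± 2.88 and 1002 ± 145 TPM. All 10 mammary epithelial markers were present, and CDKN2A, which MCF10A cells are known to lack, had no count in any of the 6 samples. The 10 markers summed to 9176 to 9791 CPM without Dox and to 5291 to 5836 CPM at 24 h. Of them 2 were called higher, KRT8 and KRT18, and 3 lower, KRT17, ITGB4 and the EGF receptor EGFR. EGFR was at 878 CPM without Dox and 422 CPM at 24 h. Some markers of other cell types were present at low levels, among them DCN, KDR and CD14, which fell and are given with the genes they belong to. The 6 neuron markers summed to 61.5 to 65.7 CPM without Dox and 92.6 to 108 CPM at 24 h, from TUBB3, a tubulin, which was called higher (20.6 to 99.8 CPM), and MAP2, a microtubule protein, which was called lower (42.4 to 1.65 CPM), while RBFOX3, SYP, SNAP25 and ELAVL3 each had a group mean under 1 CPM. COL1A2, COL3A1 and PDGFRA, of fibroblasts, VWF, of endothelium, and CD3E, of T cells, had no counts in the 6 samples. Other endothelial markers were present. PECAM1 was at 6.45 CPM without Dox and 0.0319 CPM at 24 h and was called lower. TEK was at 3.13 CPM without Dox and 2.11 CPM at 24 h and was not called. Libraries of 1 group were compared by a chi-square statistic per gene, which was 2.60 to 2.94 among the No Dox pairs and 2.91 to 8.62 at 24 h, where replicate 2 stood furthest from the others (8.62 and 5.12). Without 24 h replicate 2 the counts of called genes were 1804 higher and 2742 lower, against 1773 and 2618 with it.

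After 24 h the cells had a widely different transcriptome. Of 14822 genes tested, 4391 were called, which is 29.6%, meaning a change of at least 2-fold whose p, adjusted by Benjamini-Hochberg, was under 0.05. The called genes divided into 1773 higher at 24 h (12% of genes tested) and 2618 lower (17.7%), and these shares are the background against which the gene groups below are read. The change was at least 4-fold for 461 genes in the upward and 1007 in the downward direction, at least 16-fold for 77 and 268, and at least 64-fold for 27 and 93. The genes called lower went from 16% of all counts to 4.32%, and those called higher from 7.02% to 20.2%, which describes the calls and is not a further test. A further 3722 genes passed the adjusted p upward, and 3029 downward, but stayed under 2-fold. For 8166 genes (55.1%) the 95% interval of the change lay wholly inside 2-fold, and 2265 genes were neither called nor bounded in this way. The samples of the 2 groups did not overlap in CPM for 11504 genes (77.6%), among them 4324 of the 4391 called. Separate groups were therefore common over all genes and not particular to the genes named below. The median log2 fold change over all genes was -0.03. RNA is measured here relative to the total, and in bulk samples fewer cells of a type and less RNA per cell cannot be told apart.

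The direction of change depended on the level of expression. Among 1797 genes with a mean under 1 CPM, 33.0% were called lower and 14.1% higher. Between 1 and 10 CPM the shares were 28.6% and 11.8%, between 10 and 100 CPM 11.3% and 10.9%, and above 100 CPM 9.28% and 14.1%. Genes of low level thus carried most of the excess of lower calls, and among the abundant genes higher calls were the more frequent. A gene of low level could pass the expression filter only through the group where it was high. This favours calls at low level, so these shares are a description. Protein-coding genes divided into 1583 higher and 1969 lower of 12597, and long noncoding RNAs (lncRNAs) into 128 and 429 of 1423 (median log2 fold change -0.49).

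**Figure D1:**
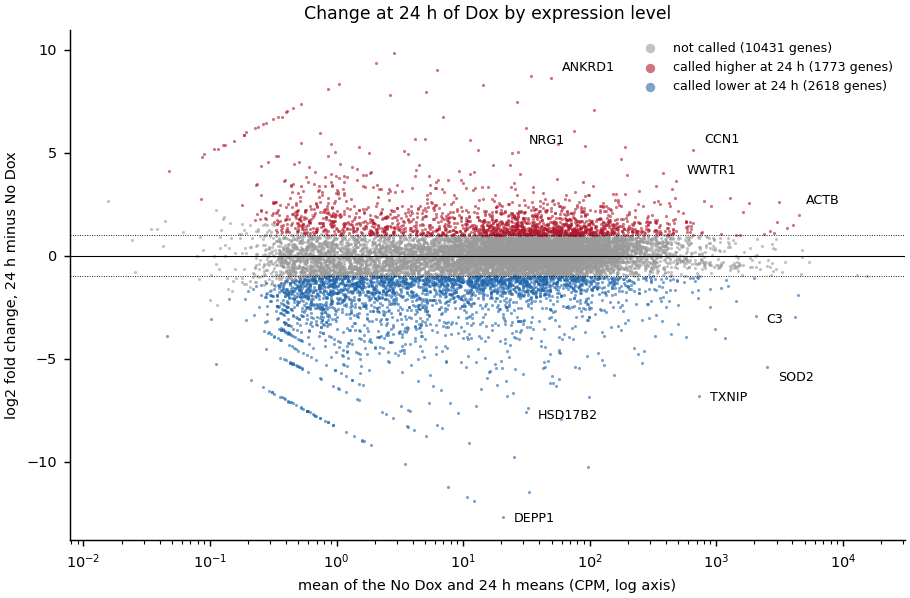
Change at 24 h against expression level for the 14822 genes tested. The horizontal axis is the mean of the 2 group means (CPM, log axis), the vertical axis the log2 fold change of 24 h over No Dox, and each point is a gene. Dotted lines mark the 2-fold threshold, with 1773 genes called higher and 2618 lower. The straight rows of points at low level are genes with few or no counts in 1 group.

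Targets of YAP and TAZ rose. Of the 22 genes of a YAP/TAZ target signature, all of which were tested, 13 were called higher and 1 lower, with a median log2 fold change of 1.36 against -0.03 over all genes. CCN2 (ENSG00000118523.5, chromosome 6, 131948176 to 131951372, minus strand, GRCh38), a matricellular protein also known as CTGF, was at 13.2, 11.2 and 16.5 CPM without Dox and 87.6, 89.3 and 88.4 CPM at 24 h, and the groups lay well apart (log2 fold change 2.69 ± 0.09 (SE), edgeR adjusted p = 6.90e-17). ANKRD1 (ENSG00000148677.6, chromosome 10, 90912096 to 90921087, minus strand), a nuclear ankyrin-repeat protein of muscle, was at 0.184, 0.126 and 0.394 CPM without Dox and 102, 100.4 and 95 CPM at 24 h. It was close to absent without Dox and among the most strongly changed genes at 24 h (8.64 ± 0.13 (SE), adjusted p = 5.32e-22 in edgeR). F3, the tissue factor that starts blood clotting, rose from 84.5 ± 2.1 to 803 ± 21.2 CPM (3.25), and the stress kinase gene NUAK2 from 7.72 ± 0.664 to 103 ± 3.38 CPM (3.75). The single member called lower was RBMS3, an RNA-binding protein, at 33.7 ± 0.337 CPM without Dox and 14.7 ± 1.04 CPM at 24 h (-1.19), a call that was lost when effective lengths entered the fit. LATS2, which restrains TAZ and is itself a known target, was at 37.6 ± 0.274 CPM without Dox and 72.5 ± 4.64 CPM at 24 h, a change of 0.95 that stayed under the fold threshold except without 24 h replicate 1.

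The promoters of CCN2 and ANKRD1 are shown because they carry the hexamer GGAATG that TEAD factors recognise. They are the 250 bases before the RefSeq start site (GRCh38.p14), with each GGAATG on the printed strand or its reverse complement in capitals. CCN2 (chr6:131951373-131951622, minus strand) holds it at positions -169, -104 and -95 from the start site, and ANKRD1 (chr10:90921088-90921337, minus strand) at -220 and -128.
CCN2: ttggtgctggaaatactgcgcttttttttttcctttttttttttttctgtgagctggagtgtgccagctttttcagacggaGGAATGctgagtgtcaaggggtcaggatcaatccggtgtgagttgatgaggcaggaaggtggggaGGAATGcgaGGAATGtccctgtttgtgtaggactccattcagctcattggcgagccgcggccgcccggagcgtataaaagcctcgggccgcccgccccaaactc
ANKRD1: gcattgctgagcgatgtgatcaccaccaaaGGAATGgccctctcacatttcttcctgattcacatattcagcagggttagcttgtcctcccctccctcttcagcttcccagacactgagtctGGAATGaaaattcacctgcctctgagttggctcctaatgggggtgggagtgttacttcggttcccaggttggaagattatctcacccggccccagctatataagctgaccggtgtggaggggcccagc
Windows from 250 bases before to 50 after the start site were searched on both strands for this and 5 other motifs, none of which contains another, and 10812 tested genes had a RefSeq window. GGAATG occurred in 14% of all 27305 windows. It was in 12.1% of those of genes called higher, 10.6% of genes called lower and 10.5% of genes not called, and in 6 of the 15 signature windows (40%). The AP-1 heptamer TGANTCA occurred in 7.76% of all windows, in 4.87% of genes called higher, 6.18% of genes called lower and 4.26% of genes not called. A match is a description of the letters and not evidence that a factor was bound there.

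Most genes that restrain TAZ were not called, as was also so over all genes tested (29.6% called), and a few changed markedly. Of 26 Hippo kinases and upstream regulators tested, 5 were called higher and 1 lower (median 0.09). NF2 (ENSG00000186575.16, chromosome 22, 29603556 to 29698598, plus strand), the merlin protein that activates LATS kinases at the membrane, was at 47.5, 42 and 45.3 CPM without Dox and 209, 189 and 197 CPM at 24 h. All 24 h values were above all No Dox values, and the rise was 2.14 ± 0.06 (SE) with an edgeR adjusted p of 7.69e-18. The giant cadherin FAT4 went from 15 ± 0.259 to 49.8 ± 3.99 CPM (1.73) and FRMD6, also called Willin, from 71.1 ± 4.32 to 151 ± 14.8 CPM (1.09, lost when the fold threshold itself was tested with glmTreat). DLG5, a scaffold of cell polarity, fell from 692 ± 15.8 to 149 ± 3.56 CPM (-2.21). Among 7 genes for 14-3-3 proteins, which bind phosphorylated TAZ, only YWHAH passed, rising from 72.3 ± 5.92 to 208 ± 3.53 CPM (1.52). The median of the 7 was 0.66.

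TEAD factors and AP-1 factors changed unequally. TEAD4 rose from 26.8 ± 1.83 to 58.5 ± 4.28 CPM (1.12) and was the only one of 7 tested TEAD and VGLL partners to be called, although glmTreat did not call it. VGLL3, a TEAD-binding cofactor, was at 36.3, 35.1 and 36.1 CPM without Dox and 38.6, 45.9 and 41.5 CPM at 24 h and was not called against No Dox (0.23). VGLL4, which competes with YAP and TAZ for TEAD, was at 51.6 ± 0.753 CPM without Dox and 36.3 ± 1.65 CPM at 24 h (-0.51). Of 13 AP-1 genes tested, 3 were called higher and 5 lower. JUN, the main partner in AP-1 dimers, was called higher at 36.6, 37.5 and 42.1 CPM without Dox and 90.2, 93.3 and 102 CPM at 24 h (1.30). JUNB fell from 154 ± 9.12 to 20.1 ± 1.3 CPM (-2.94) and FOSB from 1.19 ± 0.146 to 0.472 ± 0.211 CPM (-1.33, lost without 24 h replicate 1, with effective lengths and with glmTreat). BATF3 rose from 1.13 ± 0.144 to 3.12 ± 0.0985 CPM (1.46, lost with glmTreat). The family thus divided by member, with no common direction.

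Krüppel-like factors, zinc-finger regulators of epithelial maturation and quiescence, were mostly lower. Of 14 tested (17 listed), 9 were called lower and 1 higher, with a median of -1.05. KLF9, induced by glucocorticoids, was at 32.1, 39.5 and 36.5 CPM without Dox and 4.44, 4.66 and 6.23 CPM at 24 h, and KLF15, of the same response, fell from 19.3 ± 2.42 to 2.01 ± 0.424 CPM. KLF5, which marks proliferating basal cells, went from 226 ± 5.87 to 84.1 ± 4.85 CPM and KLF13 from 202 ± 2.81 to 76.9 ± 5.5 CPM. The exception was KLF2, at 0.384 CPM without Dox and 1.27 at 24 h (1.76, lost with glmTreat).

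Some regulators of epithelial identity fell, a few of them almost to 0. Of 19 such factors tested, 8 were called lower and 2 higher (median -0.46). ELF3 (ENSG00000163435.14, chromosome 1, 202007945 to 202017183, plus strand), an ETS factor of differentiated epithelium, was at 96.3, 102 and 105 CPM without Dox and 1.54, 1.13 and 1.51 CPM at 24 h (log2 fold change -6.18 ± 0.12 (SE), edgeR adjusted p = 2.74e-20). Its relative EHF was at 34, 37.5 and 32.5 CPM without Dox and 0.748, 0.882 and 1.09 CPM at 24 h, so that both ETS factors kept about 1 CPM. GRHL3, a driver of the epidermal barrier, fell from 12.8 ± 1.9 to 1.4 ± 0.323 CPM. RUNX2, better known in bone, rose from 4.28 ± 0.36 to 11.6 ± 1.19 CPM (1.43). FOXA1, a luminal pioneer factor, was at 2.12 ± 0.418 CPM without Dox and 4.57 ± 0.287 CPM at 24 h (1.08), and its call was lost without No Dox replicate 2, with effective lengths and with glmTreat.

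Cadherins and factors of the epithelial-mesenchymal transition (EMT) gave a divided picture. Of 18 tested, 4 were called higher and 3 lower. E-cadherin (CDH1) was at 219.9 ± 3.15 CPM without Dox and 180.2 ± 2.06 CPM at 24 h and vimentin (VIM) at 609 ± 23 CPM without Dox and 678 ± 40.5 CPM at 24 h, with changes of -0.29 and 0.16, both under the fold threshold. N-cadherin (CDH2) was called higher at 7.6, 7.45 and 10.4 CPM without Dox and 28.6, 29.7 and 26 CPM at 24 h (1.72), and CDH4 rose from 11.5 ± 1.02 to 48.9 ± 2.0 CPM (2.09). CDH13 fell from 159 ± 8.7 to 73.4 ± 1.26 CPM and the forkhead factor FOXC2 from 26 ± 0.467 to 7.57 ± 0.468 CPM. ZEB1 rose from 3.6 ± 0.879 to 8.51 ± 1.15 CPM (lost with glmTreat), and ZEB2 was at 8.26 ± 1.09 CPM without Dox and 4.15 ± 0.647 CPM at 24 h, a call of -1.01 that 12 alternative settings did not keep. N-cadherin and ZEB1 were therefore higher at 24 h in cells whose E-cadherin and vimentin stayed within 2-fold.

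Among homeobox genes, HOX members were more often higher than lower. Of 39 listed, 20 were tested, with 7 called higher, 1 lower and a median of 0.57. HOXC13, a regulator of hair keratins, was at 5.58, 7.58 and 8.38 CPM without Dox and 34.5, 30.8 and 33.3 CPM at 24 h, and HOXC11 rose from 1.67 ± 0.44 to 8.83 ± 1.64 CPM. HOXB2, HOXB3, HOXB4 and HOXB6, neighbours in the HOXB cluster, rose from 1.21, 1.02, 1.23 and 0.109 CPM to 4.69, 3.89, 4.9 and 1.87 CPM. SOX9, of progenitor cells, rose from 1.68 ± 0.238 to 7.04 ± 0.537 CPM (2.07), and SOX7 and SOX4 fell from 44.8 and 35.6 to 18.4 and 16.7 CPM (SOX4 lost with glmTreat).

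Genes for secreted growth factors moved strongly in both directions. Of 9 EGF family ligands tested, 2 were called higher and 3 lower, and their summed level went from 236 to 949 CPM. Most of the sum at 24 h was AREG, amphiregulin, a ligand of the EGF receptor, which was at 113, 117 and 123 CPM without Dox and 849, 805 and 808 CPM at 24 h (2.80). NRG1 (neuregulin, ENSG00000157168.17, chromosome 8, 31639222 to 32855666, plus strand), the ligand of ERBB3 and ERBB4, was at 1.84, 1.14 and 1.68 CPM without Dox and 48.3, 59.3 and 51.4 CPM at 24 h. HBEGF and EREG, both ligands of the EGF receptor, fell from 22.1 ± 0.999 to 7.8 ± 0.602 CPM and from 28.9 ± 0.733 to 8.39 ± 0.222 CPM, and NRG2 fell from 6.32 ± 0.284 to 0.252 ± 0.0615 CPM. Among 26 other growth factors tested (60 listed), 8 were called higher and 8 lower. PDGFB (ENSG00000100311.15, chromosome 22, 39223359 to 39244982, minus strand), the B chain of platelet-derived growth factor, was at 1.01, 0.442 and 0.64 CPM without Dox and 25.4, 24.9 and 26.7 CPM at 24 h (5.13 ± 0.17 (SE), edgeR adjusted p = 6.61e-17). BDNF, a nerve growth factor, rose from 1.54 ± 0.255 to 32.7 ± 1.21 CPM and the vasoactive peptide EDN2 from 0.196 ± 0.0572 to 3.05 ± 0.562 CPM. CSF3, the granulocyte growth factor, was at 57.5, 65.4 and 65.2 CPM without Dox and 7.06, 6.52 and 6.29 CPM at 24 h, and ANGPT1, a ligand of the TEK receptor, fell from 9.08 ± 0.759 to 0.972 ± 0.194 CPM.

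The TGF-beta and BMP system was among the groups with the largest share of called genes. Of 26 tested (35 listed), 13 were called higher and 7 lower (median 0.82), 50% against the 12% of all genes called higher. The ligands INHBA, BMP4 and BMP6 rose from 0.676, 0.427 and 0.158 CPM to 4.49, 4.08 and 1.37 CPM. FSTL1, a secreted follistatin-like protein, rose from 44.2 ± 1.4 to 293 ± 5.16 CPM, whereas the BMP antagonist NOG and the procollagen protease BMP1 fell from 6.35 ± 0.455 to 0.749 ± 0.141 CPM and from 184 ± 3.88 to 51.3 ± 3.07 CPM. The ligands named, which were chosen by size of change, were thus higher and NOG lower. Ligands were not counted apart from the rest of the list, and protein levels were not analysed here.

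Of 19 WNT genes tested, 8 were called higher and 3 lower. WNT7B and WNT10B rose from 0.742 and 1.2 to 7.21 and 6.49 CPM, and RNF43, a ubiquitin ligase that removes WNT receptors, rose from 11.4 ± 0.647 to 27.7 ± 0.926 CPM. WNT2B and WNT9A fell from 3.04 and 3.29 to 0.898 and 1.21 CPM (WNT9A lost with glmTreat). The Notch pathway moved the other way, with 7 of 20 called lower and 1 higher (median -0.51). The receptor gene NOTCH3 was at 8.52, 8.59 and 10.2 CPM without Dox and 0.515, 0.343 and 0.182 CPM at 24 h, and the ligands DLL1 and JAG1 fell from 13.3 ± 0.904 to 1.36 ± 0.212 CPM and from 41.8 ± 1.61 to 13.9 ± 1.0 CPM. HES1, the classical target of Notch signalling, was at 18.7, 17.6 and 19.8 CPM without Dox and 3.13, 2.01 and 1.69 CPM at 24 h. These ligands, this receptor and this target were all lower, while HES6, an inhibitor of HES1, rose from 1.67 ± 0.301 to 5.2 ± 0.371 CPM.

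Receptor tyrosine kinases were more often lower (10 of 29 tested) than higher (5). FGFR3 (ENSG00000068078.16, chromosome 4, 1793293 to 1808872, plus strand), a fibroblast growth factor receptor, was at 86.3, 87.8 and 86.1 CPM without Dox and 2.34, 1.62 and 2.24 CPM at 24 h (log2 fold change -5.39 ± 0.10 (SE), edgeR adjusted p = 6.30e-21). EPHB3 fell from 5.79 ± 0.291 to 1.41 ± 0.826 CPM. ROR1, a receptor for WNT5A, rose from 2.86 ± 0.123 to 28.8 ± 3.53 CPM and EPHA4 from 0.164 ± 0.242 to 2.76 ± 0.498 CPM. AXL, a receptor for GAS6 and a known target of YAP, was at 78.2, 73.4 and 77.7 CPM without Dox and 339.8, 334 and 329.8 CPM at 24 h. Genes that respond to ERK signalling were mixed, with 7 of 26 called lower and 2 higher. EGR1, an immediate early gene, was at 244, 231 and 250.2 CPM without Dox and 18.2, 14.5 and 15.1 CPM at 24 h and EGR3 had no count at 24 h in any sample, at least 72.3-fold lower than the 3.71 ± 0.332 CPM of No Dox (bounds use 3 counts over the group). The ERK phosphatases DUSP6 and DUSP10 fell from 111 ± 2.84 to 19.5 ± 0.798 CPM and from 12.8 ± 1.6 to 2.07 ± 0.624 CPM, and DUSP8 and EPHA2 rose from 0.793 and 157 to 2.55 and 359.9 CPM.

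**Figure D2:**
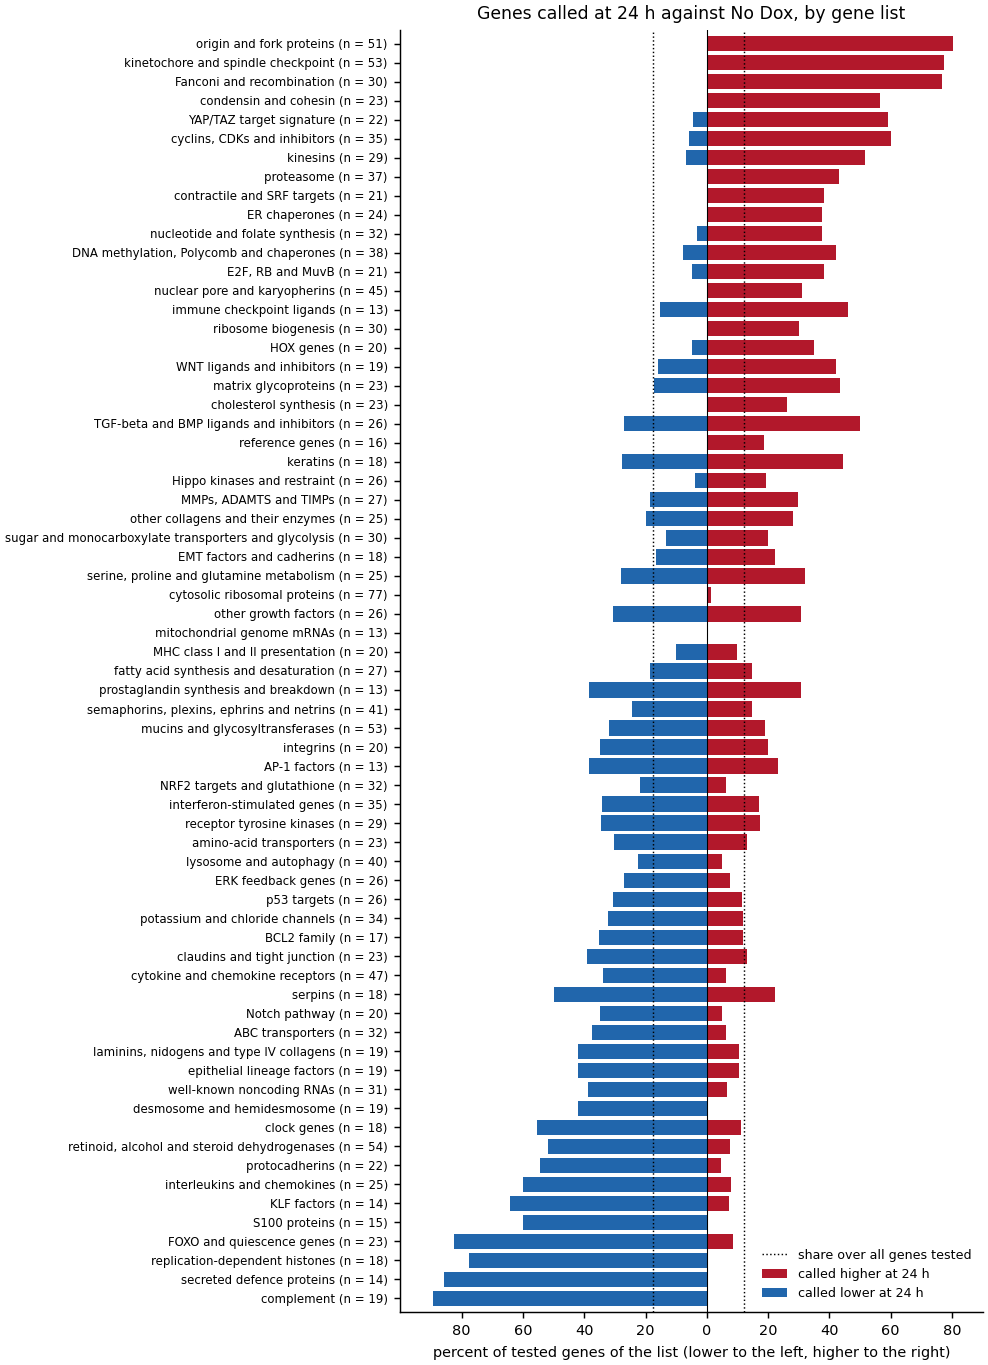
Percent of tested genes called higher (right, red) and lower (left, blue) at 24 h in gene lists with at least 13 tested genes, with the number tested in brackets. Dotted lines mark the shares over all 14822 genes, 12% higher and 17.7% lower. Origin and fork proteins have the highest share of higher calls (41 of 51) and complement the highest share of lower calls (17 of 19).

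Genes of DNA replication rose almost as a block. Of 51 origin and fork proteins, all of which were tested, 41 were called higher and 0 lower (median 1.55). GINS2, of the replicative helicase, was at 12.3, 15 and 14.2 CPM without Dox and 82.3, 76.2 and 77.9 CPM at 24 h, and GINS4 and POLE2, of the same machinery, rose from 9.41 ± 0.881 to 51.8 ± 0.953 CPM and from 3.13 ± 0.559 to 14.9 ± 1.41 CPM. MCM10 rose from 12.3 ± 1.77 to 74 ± 3.86 CPM, and CLSPN, which couples forks to the checkpoint kinase CHK1, from 9.97 ± 2.05 to 60.7 ± 5.79 CPM. The members that were not called ranged from -0.12 for TOPBP1 to 0.99 for POLD3, both named after their values were seen. Enzymes that make DNA precursors followed in part, with 12 of 32 called higher and 1 lower. Thymidine kinase TK1 was at 23.1, 21.4 and 22.1 CPM without Dox and 181, 161 and 176 CPM at 24 h, and thymidylate synthase TYMS rose from 38.4 ± 2.28 to 204 ± 3.66 CPM. DCK, PRPS1 and CTPS1, for salvage and for synthesis of nucleotides, rose by 1.58, 1.78 and 1.61 on the log2 scale.

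Some of the regulators above these genes rose with them. E2F1 (ENSG00000101412.12, chromosome 20, 33675477 to 33686385, minus strand), which drives entry into S phase, was at 9.26, 11.6 and 9.71 CPM without Dox and 44.8, 42.5 and 46.8 CPM at 24 h, and E2F2 and the repressor E2F8 rose from 3.9 ± 0.276 to 21.1 ± 1.41 CPM and from 2.36 ± 0.471 to 14.3 ± 1.62 CPM. FOXM1, the activator of late cell cycle genes, was at 46.7, 46.7 and 46.7 CPM without Dox and 242, 228 and 233 CPM at 24 h and MYBL1 rose from 8.06 ± 0.304 to 52.1 ± 7.52 CPM. RBL2, the pocket protein p130 of resting cells, fell from 111 ± 1.08 to 42 ± 3.15 CPM (-1.40). Of the 21 genes for E2F, RB and the MuvB complex, 8 were called higher, 1 lower and 12 not called (median 0.74). Cyclin D1 (CCND1, ENSG00000110092.3, chromosome 11, 69641156 to 69654474, plus strand), which starts the cycle with CDK4 and CDK6, was at 127, 124 and 121 CPM without Dox and 728, 706 and 732 CPM at 24 h, with every 24 h sample far above every No Dox sample. PLK2 rose from 24.3 ± 1.41 to 367 ± 8.47 CPM (3.92), PKMYT1, an inhibitory kinase of CDK1, from 16.4 ± 0.75 to 111 ± 7.86 CPM, and cyclin B1 (CCNB1) from 83.5 ± 1.77 to 442 ± 16.9 CPM. CDKN1C, the CDK inhibitor p57, and CCNG2, a cyclin of arrested cells, fell from 16.2 ± 0.961 to 2.1 ± 0.41 CPM and from 54.8 ± 1.83 to 10.8 ± 1.4 CPM, the only genes called lower among 35 cyclins, CDKs and inhibitors, of which 21 were called higher.

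Mitotic genes rose widely as well. Of 53 kinetochore and spindle checkpoint genes, 41 were called higher and 0 lower (median 1.72). Aurora kinase A (AURKA, ENSG00000087586.16, chromosome 20, 56369389 to 56392337, minus strand) was at 34.3, 38.6 and 38.3 CPM without Dox and 223, 215 and 211 CPM at 24 h (2.55 ± 0.06 (SE), edgeR adjusted p = 1.0e-19). SKA3 and SKA1 of the SKA complex rose from 11.4 ± 0.916 to 77.5 ± 2.22 CPM and from 6.73 ± 1.29 to 38.4 ± 0.238 CPM, SPC25 of the NDC80 complex from 4.8 ± 0.592 to 30.3 ± 1.43 CPM, and CENPI and CENPM from 5.55 and 6.03 to 32.9 and 33.3 CPM. Of 23 condensin and cohesin genes, 13 were called higher and 0 lower, among them the condensin I subunits NCAPH and NCAPG, the cohesin regulators CDCA5 and ESCO2, and separase (ESPL1), which rose by 2.18, 1.93, 2.10, 2.36 and 1.79 on the log2 scale. Among 29 kinesins, 15 were called higher and 2 lower. Those of mitosis such as KIF23, KIF20A, KIF18B and KIF2C rose by 2.16, 2.05, 2.13 and 1.99, and KIF27 and KIF13B fell by 1.75 and 1.43. Polo-like kinase 1 (PLK1) was at 54.7, 54.8 and 58.7 CPM without Dox and 316, 281 and 299 CPM at 24 h (2.41).

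The promoters of PLK1, CCNB1 and E2F1, all called higher, are shown as examples of 3 motifs of cell cycle control. CHR (TTTGAA) and the CCAAT box are known from late cell cycle promoters, and the E2F motif (TTCCCGCC or TTTGGCGC) from S phase promoters. In PLK1 (chr16:23678639-23678888, plus strand) capitals mark the CHR at position -29 and a CCAAT box at -73, in CCNB1 (chr5:69166900-69167149, plus strand) CCAAT boxes at -87 and -55, and in E2F1 (chr20:33686386-33686635, minus strand) the E2F motif at -20. Only the E2F motif was marked in E2F1, and CCAAT boxes also occur there, left in lower case.
PLK1: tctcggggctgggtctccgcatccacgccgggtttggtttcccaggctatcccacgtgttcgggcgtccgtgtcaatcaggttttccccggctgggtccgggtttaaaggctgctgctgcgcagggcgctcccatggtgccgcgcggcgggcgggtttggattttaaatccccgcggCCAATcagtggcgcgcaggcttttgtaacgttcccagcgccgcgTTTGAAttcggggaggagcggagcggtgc
CCNB1: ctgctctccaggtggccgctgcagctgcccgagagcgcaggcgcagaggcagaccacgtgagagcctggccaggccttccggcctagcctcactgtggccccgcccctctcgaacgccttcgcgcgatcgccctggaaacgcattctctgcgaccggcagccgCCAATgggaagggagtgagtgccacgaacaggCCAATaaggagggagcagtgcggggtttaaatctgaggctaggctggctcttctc
E2F1: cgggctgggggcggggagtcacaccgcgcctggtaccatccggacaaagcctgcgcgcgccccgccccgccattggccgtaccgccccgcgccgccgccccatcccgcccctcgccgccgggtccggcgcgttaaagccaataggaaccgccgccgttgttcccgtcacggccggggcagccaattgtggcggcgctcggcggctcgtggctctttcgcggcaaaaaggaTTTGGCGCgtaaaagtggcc
The CHR was found in 38 of 76 windows of genes called higher from the kinetochore, condensin and cohesin, kinesin, and cyclin and CDK lists (50%), against 15.4% of all windows and 8.83% of windows of tested genes that were not called. The CCAAT box was in 61.8% of those windows and in 35.7% of all. The E2F motif was in 15 of 36 windows of origin and fork genes called higher (41.7%), against 3.81% of all windows and 6.26% of genes not called. In those 36 windows the CHR was found in 1 (2.78%) and the CCAAT box in 52.8%. E2F1 belongs to neither set of windows. Over all genes called higher the shares were 13.7% for CHR, 44.6% for CCAAT and 9.14% for E2F, and over genes called lower 11.1%, 32.8% and 3.71%.

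Most DNA repair genes listed rose too, and some chromatin genes of dividing cells. Of 30 Fanconi and recombination genes, 23 were called higher and 0 lower (median 1.34). EXO1, a nuclease that resects DNA ends, was at 20.6, 20 and 20.5 CPM without Dox and 86.6, 87.4 and 82.6 CPM at 24 h, and RAD51AP1, RAD54L and RAD54B rose by 2.09, 1.80 and 1.74 on the log2 scale. Among 38 genes for DNA methylation, Polycomb and chromatin assembly, 16 were called higher and 3 lower. UHRF1, which brings DNMT1 to replicated DNA, was at 45.5, 43.6 and 51 CPM without Dox and 290.2, 287 and 293 CPM at 24 h, and the histone chaperones ASF1B and CHAF1B rose from 12.9 ± 2.14 to 68.6 ± 2.81 CPM and from 17.3 ± 1.76 to 63.5 ± 2.93 CPM. Lamin B1 (LMNB1), which cells lose in senescence, rose from 52.9 ± 3.5 to 269.6 ± 3.99 CPM. CBX7 and EZH1, Polycomb proteins of resting cells, fell from 16.1 ± 0.362 to 4.29 ± 0.378 CPM and from 62.6 ± 1.48 to 22.1 ± 2.71 CPM.

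Replication-dependent histone genes went against this pattern. Of 69 listed genes 18 were tested, of which 14 were called lower and 0 higher (median -2.21). Their share of counts was 0.0130 ± 0.00107% without Dox and 0.00246 ± 0.000176% at 24 h (exact permutation p = 0.1, two-sided, the smallest that 3 against 3 samples allow). H2AC25 was at 31.3, 38.2 and 39.9 CPM without Dox and 5.1, 3.53 and 5.26 CPM at 24 h, H2BC5 fell from 7.86 ± 0.337 to 0.657 ± 0.243 CPM and H2BC21 from 6.29 ± 1.5 to 0.287 ± 0.0755 CPM. Most transcripts of these genes end without a poly(A) tail, and the libraries were made from RNA selected by that tail, so the values cover what the selection kept. Mitochondrial ribosomal RNA went from 0.804 ± 0.0226% to 0.234 ± 0.0148% of counts and lncRNA from 1.26 ± 0.0576% to 0.763 ± 0.0155% (exact permutation p = 0.1 for each), and their part in the histone values was not tested. H4C15 and H2AC19, both called lower, are uncertain because RSEM's posterior SD for dividing reads among similar copies was over 5% of their counts, and DESeq2 did not call H2AC19.

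Machinery for making, moving and removing proteins was higher wherever it was called. Of 45 nuclear pore and transport genes, 14 were called higher and 0 lower (median 0.67). Importin alpha KPNA2 was at 131, 134 and 141 CPM without Dox and 736, 707 and 735 CPM at 24 h, and CSE1L, which returns it to the cytoplasm, rose from 166 ± 7.04 to 411 ± 13.1 CPM. Among 30 ribosome biogenesis genes 9 were called higher and 0 lower, including the nucleolar proteins NOP56 (198 to 472 CPM), NOP58 (96.2 to 218) and RRP9 (26.2 to 68). Among 37 proteasome genes 16 were called higher and 0 lower (median 0.95), and every one of the 37 had a positive change, from 0.12 for PSMB10, named after its value was seen, to 1.72 for PSMD2. PSMD2 and PSMD1, of the regulatory particle, rose from 211 ± 5.07 to 694 ± 19.7 CPM and from 93.9 ± 3.87 to 272 ± 4.89 CPM. Among 24 ER chaperone genes 9 were called higher and 0 lower. SDF2L1, HSPA5 and MANF rose from 6.96, 319.9 and 37.2 to 39.1, 871 and 115 CPM.

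Cytosolic ribosomal proteins did not share in this. Of 77 tested, 1 was called higher, the variant RPL26L1 (27.2 to 64.2 CPM), and 0 lower, with a median of -0.41. Their share of counts was 8.69 ± 0.213% without Dox and 6.26 ± 0.146% at 24 h (exact permutation p = 0.1, two-sided). By edgeR 0 of the 13 mRNAs of the mitochondrial genome were called in either direction (median -0.11), although 9 of them passed the adjusted p alone. Their largest change was -0.94 for MT-CO1, which the 5 CPM filter did call, and MT-CO2 was at 5956 ± 34 CPM without Dox and 4798 ± 475 CPM at 24 h.

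**Figure D3:**
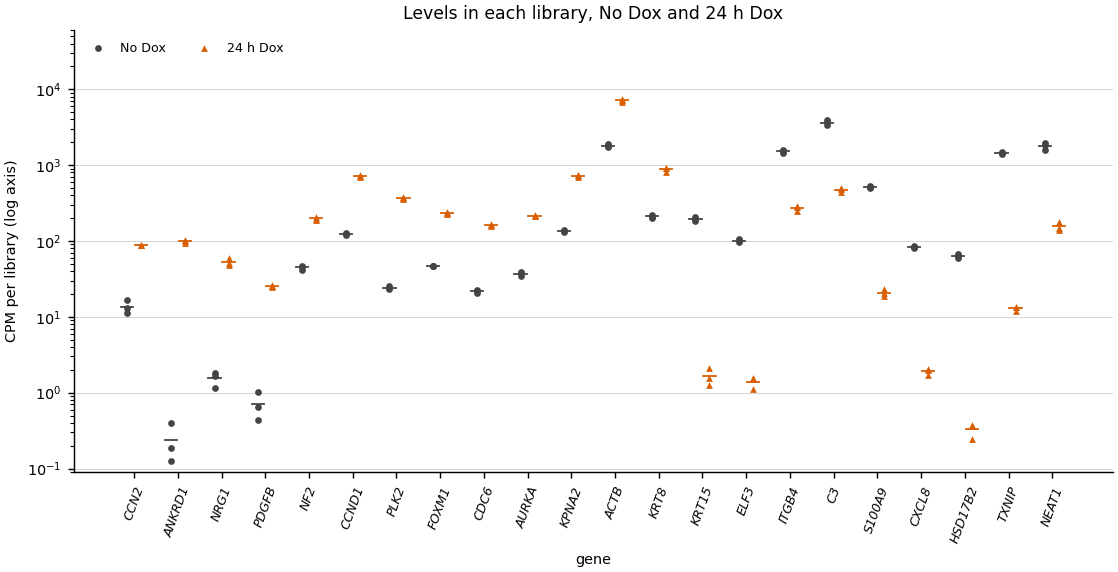
Level of 22 genes in each sample, in CPM on a log axis. Circles are the 3 No Dox and triangles the 3 24 h samples, and short lines are group means. For each gene the groups lie apart, with CCN2, ANKRD1, NRG1, PDGFB, NF2, the cell cycle genes, KPNA2, ACTB and KRT8 higher at 24 h and the others lower. The groups did not overlap for 77.6% of all genes tested.

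Genes of inflammatory signals fell. Of 25 interleukins, chemokines and TNF family ligands tested (69 listed), 15 were called lower and 2 higher (median -1.57). CXCL8 (ENSG00000169429.9, chromosome 4, 73740519 to 73743716, plus strand), which attracts neutrophils, was at 82, 86.6 and 82.8 CPM without Dox and 1.96, 1.72 and 2.06 CPM at 24 h (-5.45 ± 0.11 (SE), edgeR adjusted p = 2.72e-20). CXCL1, of the same function, was at 168, 167 and 174 CPM without Dox and 38.6, 31.6 and 37.2 CPM at 24 h. TNFSF14 (LIGHT) fell from 36.8 ± 2.24 to 2.07 ± 0.246 CPM, IL15 from 12.5 ± 0.95 to 1.94 ± 0.527 CPM and the death ligand TNFSF10 (TRAIL) from 3.83 ± 0.556 to 0.173 ± 0.0289 CPM. TNFSF9 was called higher at 23.5 against 10.8 CPM (lost with glmTreat) and IL12A at 2.47 against 1.19 CPM, a call lost with glmTreat and in 3 fits with a library left out.

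The promoters of CXCL8 and CXCL1 are given because they hold the NF-kB motif GGANTTTCC, marked in capitals. It stands at -91 in CXCL8 (chr4:73740319-73740568, plus strand), whose AP-1 motif at -137 is also marked, and at -78 in CXCL1 (chr4:73869143-73869392, plus strand).
CXCL8: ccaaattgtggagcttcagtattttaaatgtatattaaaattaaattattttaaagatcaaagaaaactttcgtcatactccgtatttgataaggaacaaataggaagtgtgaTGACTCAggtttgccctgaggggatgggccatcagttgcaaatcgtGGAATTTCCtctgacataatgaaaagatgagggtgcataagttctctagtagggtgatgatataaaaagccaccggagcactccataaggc
CXCL1: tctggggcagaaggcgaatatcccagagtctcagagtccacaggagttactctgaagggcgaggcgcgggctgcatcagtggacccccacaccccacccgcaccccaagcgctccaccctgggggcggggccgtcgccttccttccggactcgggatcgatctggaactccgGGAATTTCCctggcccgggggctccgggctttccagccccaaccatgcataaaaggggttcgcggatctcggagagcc
The motif was in 4 of the 14 windows of interleukins and chemokines called lower (28.6%) and in 1.64% of all windows. CXCL2 and CXCL3, neighbours of CXCL1 on chromosome 4 with similar promoters, hold it at -77 and -78 (both named after their windows were seen), and similar promoters are not independent of each other. Over all genes the NF-kB shares were 2.25% of windows of genes called higher, 2.47% of those called lower and 1.38% of those not called. The AP-1 motif was in more of the same 14 windows, 5 of them (35.7%), against 7.76% of all windows. The CHR was in 3 (21.4%), against 15.4% of all windows.

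Some receptors for these signals were lower too. Of 47 cytokine and chemokine receptors tested, 16 were called lower, 3 higher and 28 not called. CXCR1 (ENSG00000163464.7, chromosome 2, 218162841 to 218166962, minus strand), a receptor for CXCL8, had 3 counts in all at 24 h, and the count ratio of No Dox to 24 h was 989 (95% exact interval 338 to 4797). CXCR2, the second CXCL8 receptor, had none, at least 28.6-fold lower than its 1.48 ± 0.252 CPM. IL6R was at 129, 127 and 129 CPM without Dox and 8.42, 8.18 and 8.17 CPM at 24 h. TNFRSF12A, the receptor of TWEAK, and TNFRSF21 rose from 83.6 ± 6.6 to 301 ± 19.9 CPM and from 8.18 ± 1.34 to 35 ± 1.22 CPM. Of 35 interferon-stimulated genes, 12 were called lower and 6 higher. OAS1, GBP2 and IFI44L fell from 43.5, 51.8 and 25 to 4.14, 3.16 and 1.64 CPM, while IFIT1 and USP18 rose from 1.0 and 2.99 to 5.05 and 11.6 CPM. The interferon group thus had no single direction.

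Genes for proteins of innate defence fell nearly throughout. Of 19 complement genes, 17 were called lower and 0 higher (median -2.46). Complement C3 (ENSG00000125730.15, chromosome 19, 6677704 to 6730562, minus strand), the centre of the cascade, was at 3879, 3339.7 and 3704 CPM without Dox and 491, 439 and 495 CPM at 24 h. Factor B (CFB) was at 114, 109.8 and 107 CPM without Dox and 4.82, 3.33 and 5.63 CPM at 24 h. Of 14 secreted defence proteins, 12 were called lower and 0 higher (median -3.45). S100A8 and S100A9, which form calprotectin, fell from 149 ± 4.85 to 3.53 ± 0.214 CPM and from 516 ± 14.3 to 20.8 ± 2.22 CPM, and the iron-binding LCN2 from 39.1 ± 1.31 to 1.12 ± 0.163 CPM. SAA2, an acute-phase protein, was at 81.9, 84.8 and 73.8 CPM without Dox and 6.64, 6.22 and 7.32 CPM at 24 h. Of 15 S100 genes, 9 were called lower and 0 higher, among them S100A14, S100A4 and S100P at 280.2, 24.3 and 3.73 CPM against 1161, 93.8 and 15.7 without Dox. CD14 is used as a blood marker and is also a known product of epithelial cells. It was at 19.1 to 22.8 CPM without Dox and 2.06 to 2.11 CPM at 24 h. PTPRC, CD3E, MS4A1 and LYZ, also blood markers, had 1 count between them in the 6 samples. The blood marker HBA1 was at 1.04 CPM without Dox and 1.58 CPM at 24 h and was not called.

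Surface molecules that T and NK cells read moved apart from this. Of 13 immune checkpoint ligands tested, 6 were called higher and 2 lower. PDCD1LG2 (PD-L2) was at 0.415, 0.253 and 0.345 CPM without Dox and 3.46, 3.97 and 3.15 CPM at 24 h, and the nectin family members PVR and NECTIN2 rose from 69.8 ± 2.38 to 190.1 ± 9.31 CPM and from 25.3 ± 1.67 to 77.2 ± 4.94 CPM. Of 20 genes of antigen presentation, 2 were called in each direction. MICA and MICB, ligands of the receptor NKG2D, rose from 19.1 ± 1.47 to 53 ± 0.776 CPM and from 10.6 ± 1.52 to 34.6 ± 1.7 CPM, and HLA-E and TAPBP fell from 254 ± 3.04 to 115 ± 7.55 CPM and from 140.3 ± 1.65 to 59.2 ± 3.24 CPM. 

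Keratins were exchanged at 24 h. Of 18 tested (55 listed), 8 were called higher and 5 lower. KRT8 (ENSG00000170421.10, chromosome 12, 52897187 to 52949954, minus strand) and KRT18, the pair of simple epithelium, are partners in 1 filament. KRT8 was at 203, 210.2 and 219 CPM without Dox and 924, 815 and 917 CPM at 24 h. KRT18 was at 353, 370.0 and 380.4 CPM without Dox and 865, 752 and 809 CPM at 24 h, and both were called higher. KRT15 (ENSG00000171346.12, chromosome 17, 41513745 to 41522529, minus strand), of basal and progenitor cells, was at 198, 186 and 205 CPM without Dox and 2.11, 1.27 and 1.57 CPM at 24 h (-6.88 ± 0.12 (SE), edgeR adjusted p = 4.74e-21). KRT17 fell from 2366 ± 87.3 to 518 ± 56.9 CPM, whereas the basal keratin KRT5 was at 3521 ± 157 CPM without Dox and 2116 ± 133 CPM at 24 h and its partner KRT14 at 11 ± 0.965 CPM without Dox and 21.2 ± 1.08 CPM at 24 h, neither of which was called in the reported fit, although KRT14 was called without No Dox replicate 1. KRT80 rose from 11.4 ± 1.44 to 59.5 ± 2.48 CPM, and the hair keratin KRT34, with no counts in No Dox, was at 2.07 ± 0.298 CPM, at least 39.7-fold higher. KRT7 and KRT81 were among the 8 genes that gained most CPM, from 2050.3 ± 67.7 to 5244 ± 302 CPM and from 2109.8 ± 59.6 to 5956 ± 362 CPM.

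Part of the junctions that anchor keratin fell. Of 19 desmosome and hemidesmosome genes, 8 were called lower and 0 higher (median -0.72). Integrin beta 4 (ITGB4, ENSG00000132470.12, chromosome 17, 75721328 to 75757818, plus strand), which binds laminin in hemidesmosomes, was at 1518, 1457 and 1584 CPM without Dox and 283, 247 and 286 CPM at 24 h. COL17A1, the bullous pemphigoid antigen, fell from 447 ± 28.3 to 144 ± 3.7 CPM, desmoplakin (DSP) from 993 ± 42.1 to 297 ± 10.9 CPM and PERP from 618 ± 17.2 to 185 ± 3.05 CPM. The cornified envelope protein periplakin (PPL) fell from 357 ± 13.9 to 41.3 ± 4.29 CPM, whereas SCEL rose from 2.31 ± 0.631 to 22.3 ± 1.38 CPM. Tight junction genes fell in part, with 9 of 23 lower and 3 higher. CLDN1 was at 462, 479.7 and 469.6 CPM without Dox and 93.2, 94 and 93.2 CPM at 24 h and TJP3 fell from 18.1 ± 2.41 to 0.084 ± 0.0205 CPM, while PALS1, of the Crumbs polarity complex, rose from 41.2 ± 0.146 to 273 ± 20.4 CPM.

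Genes of the extracellular matrix and its receptors moved in both directions. Integrins numbered 4 higher and 7 lower of 20. ITGA10, ITGB8 and ITGA2 fell from 84.4, 139.5 and 117 to 2.39, 13.2 and 20 CPM, and ITGB2, best known on leukocytes, was at 14.2, 16.8 and 15.2 CPM without Dox and 66.9, 54.9 and 61.3 CPM at 24 h. Basement membrane genes were lower for 8 of 19 and higher for 2. The anchoring fibril collagen COL7A1 fell from 61.5 ± 2.21 to 5.61 ± 1.1 CPM, and COL4A5 and COL4A6, transcribed from a shared promoter region, from 213 ± 2.13 to 64.6 ± 5.18 CPM and from 138 ± 9.25 to 43.2 ± 1.2 CPM. COL4A1 and COL4A2, another such pair, rose from 70 ± 1.39 to 219 ± 12.6 CPM and from 148 ± 9.65 to 455 ± 30.8 CPM. The type IV pairs thus moved in opposite directions, and each pair moved together.

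Matrix glycoproteins were higher for 10 of 23 and lower for 4 (median 0.83). FN1, fibronectin, was at 19.1, 18.1 and 17.9 CPM without Dox and 191, 191 and 195 CPM at 24 h. Decorin (DCN), often taken as a fibroblast marker, fell from 50.1 ± 0.954 to 1.11 ± 0.396 CPM (lost in DESeq2 with effective lengths), and THBS3 from 30.8 ± 1.64 to 3.01 ± 0.149 CPM. The 8 fibroblast markers summed to 54.5 to 56.4 CPM without Dox, most of it DCN, and to 3.32 to 5.14 CPM at 24 h. COL1A1 was at 4.42 CPM without Dox and 2.43 CPM at 24 h and was not called, and 6 of the 8 were under 1 CPM in both groups, with COL1A2, COL3A1 and PDGFRA at 0. Among 25 other collagens and their enzymes, 7 were called higher and 5 lower. LOXL2 and LOXL3, which crosslink collagen, rose from 38.7 ± 1.63 to 208 ± 12.5 CPM and from 2.56 ± 0.221 to 25.7 ± 0.717 CPM, and COL16A1 fell from 19.2 ± 0.532 to 3.76 ± 0.303 CPM. Of 27 matrix proteases and inhibitors, 8 were called higher and 5 lower. ADAMTS1, ADAMTS12 and ADAMTS6 rose from 1.39, 0.661 and 0.546 to 22.9, 10.1 and 7.86 CPM. The urokinase receptor PLAUR rose from 5.48 ± 0.475 to 24.9 ± 0.866 CPM and MMP28 fell from 14.4 ± 1.56 to 3.75 ± 0.478 CPM. Serpins, which inhibit proteases, were higher for 4 of 18 and lower for 9, with SERPINA3 at 191, 179 and 184 CPM without Dox and 5.8, 6.32 and 6.96 CPM at 24 h.

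Genes of the contractile cytoskeleton were called in the upward direction only. Of 21 contractile and SRF target genes, 8 were called higher and 0 lower (median 0.79). MYL9, the regulatory light chain of myosin, was at 2.3, 1.14 and 2.22 CPM without Dox and 17.5, 14.8 and 13.1 CPM at 24 h, and ACTN1, TPM1, LIMA1 and CNN3 rose by 1.69, 1.92, 1.72 and 1.75 on the log2 scale. Beta-actin (ACTB, ENSG00000075624.12, chromosome 7, 5526409 to 5563902, minus strand) gained more counts than any other gene, at 1805, 1715 and 1898 CPM without Dox and 7538, 6815 and 7217 CPM at 24 h (1.99 ± 0.05 (SE), edgeR adjusted p = 2.20e-18). Annexins, which link membranes to actin, were higher for 4 of 9 and lower for 0, with ANXA2 rising from 1462 ± 24.9 to 4552 ± 201 CPM and ANXA6 from 5.95 ± 0.882 to 30.5 ± 1.7 CPM. The formin DIAPH3, which builds actin filaments, rose from 26.4 ± 0.988 to 134 ± 12.3 CPM.

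Enzymes of hormone and xenobiotic metabolism were often lower. By count no other list held as many genes called lower, but the list is long. Shorter lists had larger shares, such as complement with 17 of 19. Of 54 retinoid, alcohol and steroid dehydrogenases and related enzymes tested (91 listed), 28 were called lower and 4 higher (median -1.11). HSD17B2 was at 63, 59.5 and 66.4 CPM without Dox and 0.374, 0.245 and 0.363 CPM at 24 h. SULT1E1, which sulfates oestrogens, fell from 32.2 ± 2.19 to 0.652 ± 0.058 CPM, and DHRS9, a retinol dehydrogenase, had 2 counts in all at 24 h against 13.5 ± 1.43 CPM without Dox. CRABP2, which carries retinoic acid to its receptor, rose from 0.866 ± 0.247 to 2.92 ± 0.238 CPM. HSD17B6 was the only gene named here that was called although the groups overlapped (0.507 and 1.2 CPM), and 4 alternative settings lost the call.

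ABC transporters were called lower more often than higher, whereas the cholesterol synthesis genes that were called were all higher. Of 32 ABC transporters, 12 were called lower and 2 higher. ABCA6 and its neighbours ABCA9 and ABCA10 on chromosome 17 were at 117 ± 1.38, 22.1 ± 1.2 and 8.4 ± 0.438 CPM without Dox and 0.469 ± 0.167, 0.0319 ± 0.0277 and 0.834 ± 0.326 CPM at 24 h. ABCG1, which exports cholesterol, fell from 25.1 ± 1.38 to 0.15 ± 0.119 CPM, and ABCA8 and ABCG2 rose to 2.02 and 1.84 CPM from 0.331 and 0.226. ACSL1, which activates fatty acids, was at 676, 655 and 665 CPM without Dox and 77, 76.7 and 69.7 CPM at 24 h, and LPIN1 fell from 301 ± 3.33 to 89.4 ± 6.04 CPM. FABP5 and the lipase MGLL rose from 33 ± 0.229 to 117 ± 2.14 CPM and from 37.3 ± 2.94 to 122 ± 3.51 CPM, with 4 higher and 5 lower of 27 fatty acid genes. Of 23 cholesterol synthesis genes, 6 were called higher and 0 lower, among them MVD (49.2 to 145 CPM), HMGCS1 (86.1 to 212) and FDPS (339 to 830.0).

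Genes of carbon and nitrogen metabolism were called in both directions. PDK4, which inhibits pyruvate dehydrogenase, was at 95, 99.7 and 102 CPM without Dox and 1.78, 1.62 and 1.82 CPM at 24 h, and the hexokinase HK2 rose from 35.9 ± 0.277 to 76.6 ± 4.51 CPM (lost with glmTreat), with 6 of 30 sugar transport and glycolysis genes higher and 4 lower. Of 25 serine, proline and glutamine genes 8 were higher and 7 lower. The proline-degrading PRODH fell from 20.5 ± 0.445 to 0.477 ± 0.228 CPM and the proline-making PYCR3 rose from 7.77 ± 1.04 to 24.4 ± 2.62 CPM. GLUD1, glutamate dehydrogenase, was at 837, 838 and 841 CPM without Dox and 155, 166 and 165 CPM at 24 h, ASS1, of arginine synthesis, fell from 485 ± 4.98 to 97 ± 4.98 CPM and SAT1, of polyamine breakdown, from 346 ± 4.72 to 35.8 ± 0.994 CPM. Among 23 amino-acid transporters, SLC7A2, for cationic amino acids, was at 907, 909.9 and 891 CPM without Dox and 83.3, 99.4 and 87.3 CPM at 24 h, and SLC7A5, for leucine and other large neutral amino acids, rose from 1641 ± 49.4 to 3718 ± 185 CPM. In all, 7 of these were lower and 3 higher.

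Redox and lysosome genes were called lower at shares near the 17.7% of all genes. Of 32 NRF2 and glutathione genes, 7 were lower and 2 higher, with the export pumps ABCC3 and ABCC2 at 64.3 and 6.74 CPM against 527 and 37.7, and haem oxygenase HMOX1 at 4.02 against 1.02. The metallothioneins MT1X, MT1E and MT2A, which bind zinc and copper, fell from 174, 604 and 2731 to 22.2, 151 and 1272 CPM (MT2A lost with glmTreat). Of 40 lysosome and autophagy genes, 9 were lower and 2 higher. TFEB, the regulator of lysosome genes, and ULK1, the kinase that starts autophagy, fell from 14.2 ± 1.6 to 3.63 ± 0.156 CPM and from 54.5 ± 0.887 to 16 ± 0.786 CPM, and the cathepsin CTSV rose from 2.42 ± 0.55 to 9.75 ± 1.11 CPM. In prostaglandin metabolism the degrading enzyme HPGD fell from 18.8 ± 0.379 to 0.512 ± 0.241 CPM and the lipoxygenase ALOX15B from 108 ± 4.47 to 1.31 ± 0.124 CPM, and the receptor PTGER4 rose from 1.54 ± 0.055 to 7.33 ± 0.825 CPM.

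Surface glycoproteins, channels and guidance genes were called in both directions. Of 53 mucins and glycosyltransferases, 17 were lower and 10 higher, with MUC1 at 204, 188 and 186 CPM without Dox and 28.9, 22.1 and 31 CPM at 24 h and GCNT1, which builds core 2 O-glycans, rising from 15.9 ± 0.98 to 73.3 ± 6.14 CPM. Of 34 potassium and chloride channels, 11 were lower and 4 higher, among them KCNN4 (87.2 to 11.2 CPM), KCNK2 (24.8 to 0.677) and BEST1 (95.9 to 10.9). CLIC5, with no counts in No Dox, was at 1.7 ± 0.527 CPM. SEMA7A, a membrane-anchored semaphorin that binds integrins, was at 0.875, 0.758 and 0.838 CPM without Dox and 60, 62.6 and 65 CPM at 24 h (6.22), whereas SEMA6A, UNC5B and the plexin PLXNB1 fell from 14.2, 28.4 and 388 to 0.619, 1.63 and 75.7 CPM. Guidance genes were lower for 10 of 41 and higher for 6. Of 22 protocadherins, 12 were called lower and 1 higher, but for 11 of the 22 that posterior SD was over 5% of the count, and their values are uncertain.

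Genes of quiescence and of FOXO factors fell with few exceptions. Of 23 tested, 19 were called lower and 2 higher (median -2.34). TXNIP (ENSG00000265972.4, chromosome 1, 145992435 to 145996579, minus strand), which inhibits glucose uptake, was at 1407, 1479 and 1454 CPM without Dox and 11.8, 13.6 and 13.4 CPM at 24 h, and TSC22D3, the glucocorticoid-induced GILZ, at 307, 299 and 306 CPM without Dox and 5.38, 5.34 and 5.75 CPM at 24 h (-5.79 ± 0.09 (SE), edgeR adjusted p = 3.70e-22). ZBTB16, also induced by glucocorticoids, fell from 78.4 ± 0.0588 to 3.68 ± 0.371 CPM, and PIK3IP1, an inhibitor of PI3 kinase, had 1 count at 24 h against 7.36 ± 0.998 CPM without Dox. IRS1, of insulin signalling, and GADD45A were the exceptions, rising from 21.3 ± 2.95 to 63.6 ± 1.38 CPM and from 21.9 ± 1.3 to 45.6 ± 1.48 CPM, the latter not called with glmTreat or upper-quartile scaling or at a 5 CPM filter. The medium held both insulin and hydrocortisone in all samples.

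Clock, p53 and cell death genes shared this direction in part. Of 18 clock genes, 10 were called lower and 2 higher. PER2 was at 20, 23.1 and 22.6 CPM without Dox and 2.9, 3.72 and 3.21 CPM at 24 h, NR1D1 (REV-ERB alpha) fell from 12 ± 0.583 to 2.6 ± 0.897 CPM, NFIL3 from 55.2 ± 2.92 to 10.2 ± 1.17 CPM, and CRY1 rose from 10.4 ± 0.655 to 40.1 ± 2.61 CPM. A sampling hour is not given in the sources used here, so time of day and Dox cannot be told apart for these genes. Of 26 p53 targets, 8 were lower and 3 higher, with TP53INP1, ZMAT3 and BTG2 falling from 17.6, 124 and 58.8 to 1.61, 44.7 and 19.1 CPM and AEN rising from 38 ± 1.76 to 89.2 ± 0.516 CPM. Of 17 genes of the BCL2 family, 6 were called lower and 2 higher (median 0.0069). Among those called lower, the killers BMF, BCL2L11 (BIM), BBC3 (PUMA) and HRK went from 2.88, 37.4, 10.8 and 15.1 to 0.0163, 10.7, 4.7 and 6.91 CPM. The survival protein MCL1 fell from 979 ± 8.92 to 462 ± 29.6 CPM, and glmTreat called none of BBC3, HRK and MCL1. Those called higher were BCL2L12 (17 to 52.9 CPM) and the survival protein BCL2 (2.76 to 5.68 CPM), whose call was lost in 5 alternative settings. MXD4, MXI1 and MNT, which compete with MYC for MAX, fell from 159 ± 6.45 to 26.1 ± 4.6 CPM, from 39 ± 0.377 to 7.29 ± 0.187 CPM and from 41.6 ± 2.49 to 17.8 ± 1.24 CPM. MXD1 and MXD3 lay at the fold threshold (-1.0 and 1.0), and their calls were lost in 13 and 8 alternative settings.

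**Figure D4:**
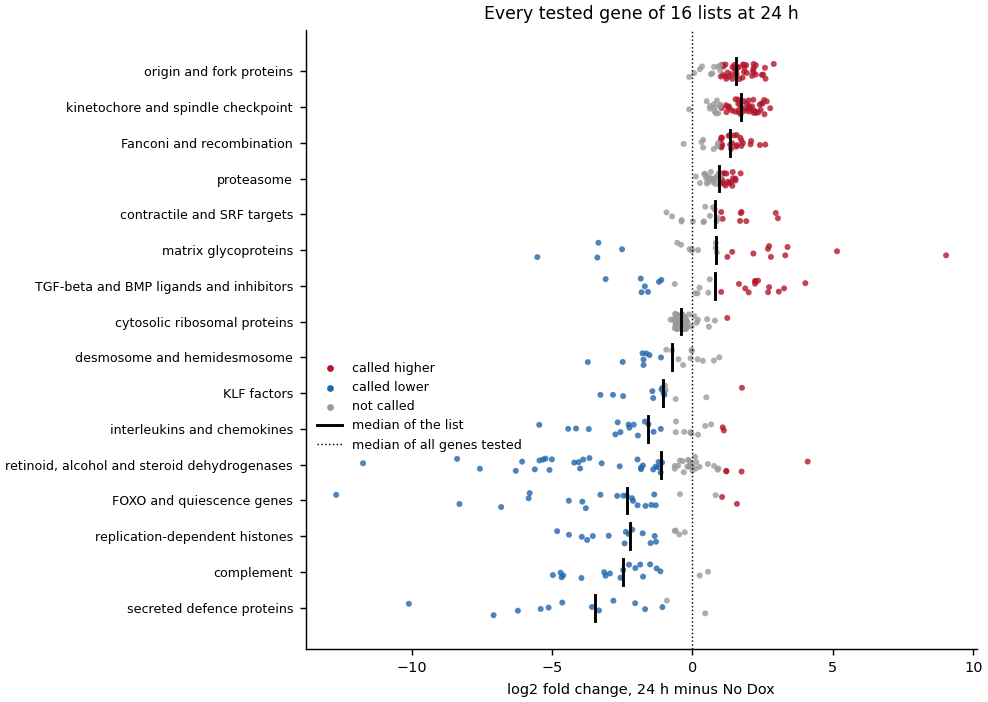
Log2 fold change at 24 h of every tested gene of 16 lists, 1 point per gene, coloured by call. Vertical bars are list medians and the dotted line the median of all genes tested (-0.03). Replication, mitosis and repair genes lie to the right, and defence, histone and quiescence genes to the left. Scatter within a row is for legibility.

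Noncoding RNAs were more often lower than higher. Of 31 well-known ones tested, 12 were called lower and 2 higher. NEAT1 (ENSG00000245532.5, chromosome 11, 65422774 to 65445540, plus strand), the scaffold of paraspeckles, was at 1845, 1983 and 1595 CPM without Dox and 140.3, 176 and 150.0 CPM at 24 h (-3.54), and LINC00511 and LINC-PINT fell from 17.8 ± 0.939 to 5.46 ± 1.69 CPM and from 8.65 ± 0.419 to 1.75 ± 0.734 CPM. SNHG1, a snoRNA host, rose from 101 ± 1.58 to 217 ± 6.13 CPM and CYTOR from 15.6 ± 0.419 to 33 ± 0.911 CPM (lost with effective lengths and with glmTreat). Among the lncRNAs of largest rise, with at least 1 CPM, were SFTA1P (0.31 to 53.4 CPM), LINC01133 (0.0943 to 3.51) and MIR503HG (0.204 to 3.44). ELF3-AS1, beside ELF3, fell from 1.89 ± 0.324 to 0.073 ± 0.0643 CPM, and LINC02015 and LINC02019 from 13.2 and 2.32 to 0.145 and 0.0833 CPM. Whether counting used strand is not given in the sources used here, so reads of ELF3 and its antisense gene cannot be told apart.

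The steepest rises among genes of at least 5 CPM included genes outside all of the groups above. NLRP3 (ENSG00000162711.15, chromosome 1, 247416156 to 247449108, plus strand), the sensor of the inflammasome, was at 0.0922, 0.253 and 0.246 CPM without Dox and 9.45, 9.9 and 10.3 CPM at 24 h. MARCHF4, a membrane ubiquitin ligase, rose from 0.116 ± 0.0464 to 13.7 ± 1.17 CPM (6.75) and the carboxypeptidase CPA4 from 1.6 ± 0.423 to 215 ± 12.1 CPM (7.06). PSG4, a pregnancy-specific glycoprotein, had 2 counts in No Dox and a count ratio of 293 (95% exact interval 80.8 to 2426), and the sodium-calcium exchanger SLC8A1 had 1 count and a ratio of 302 (95% exact interval 53.7 to 11948). These intervals cover counting error only. Among the steepest falls was that of the bestrophin BEST2, with 1 count at 24 h against 10.1 ± 0.425 CPM.

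Counts moved most in abundant genes. Beside ACTB, genes that gained most included the chaperones HSP90AA1 (871 to 5383 CPM) and HSPA8 (1814 to 3901) and the tubulin TUBA1B (528 to 3078). The largest losses included the elongation factors EEF1A1 (20454 ± 374 and 10426 ± 58.3 CPM, -0.97) and EEF2 (6104 ± 149 and 3320.2 ± 127 CPM, -0.88), neither of which was called in the reported fit. EEF1A1 was called in 7 alternative settings and EEF2 in 1, that without the fold threshold. Ferritin heavy chain FTH1 was at 7381, 7477 and 7492 CPM without Dox and 989, 929 and 957 CPM at 24 h (-2.96) and mitochondrial MT-RNR2 at 6998 ± 159 CPM without Dox and 1871 ± 115 CPM at 24 h.

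Genes often used as reference differed in how steady they were. Of 16, 3 were called higher, among them ACTB and, at 1.04, HPRT1, a call lost with glmTreat, effective lengths, upper-quartile scaling and a 5 CPM filter. The median of the 16 was 0.34. At the other end, 8 protein-coding genes of at least 100 CPM had the narrowest intervals around no change. UBE2D3, a ubiquitin-conjugating enzyme, was at 328, 327 and 339 CPM without Dox and 327, 334 and 326 CPM at 24 h, with a change of -0.01 and a 95% interval of -0.10 to 0.08. The interval was -0.10 to 0.09 for STT3B, of N-glycosylation, -0.10 to 0.09 for SEC31A, of vesicle coats, and -0.09 to 0.09 for the kinase CSNK1A1. These genes were chosen for this property, so the intervals are a description.

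The last comparison set 24 h against the mean of 48 and 72 h, leaving the No Dox level out. It shares the 24 h samples with the first comparison, and the values below are given side by side. Of 14822 genes, 361 (2.44%) were called higher at 24 h than later and 791 (5.34%) lower, fewer than against No Dox. CPA4 was at 1.6 ± 0.423, 215 ± 12.1, 42.8 ± 2.76 and 8.27 ± 0.499 CPM at 0, 24, 48 and 72 h (24 h minus later, log2 3.51 ± 0.06 (SE), edgeR adjusted p = 5.87e-20). PTX3, a soluble pattern receptor, was at 2.51 ± 0.239, 109 ± 6.04, 26.5 ± 2.34 and 19.1 ± 1.57 CPM and the matrix protein tenascin C (TNC) at 1.13 ± 0.238, 11 ± 0.386, 2.52 ± 0.758 and 0.73 ± 0.413 CPM. These 3 peaked at 24 h, whereas CXCL1 was at 169.6 ± 3.48, 35.8 ± 3.72, 9.42 ± 1.66 and 2.33 ± 0.482 CPM, lower at each time than at the one before. In the other direction, KDR, the VEGF receptor, was at 27.6 ± 0.462 CPM without Dox, 0.294 ± 0.269 at 24 h, 2.58 ± 0.505 at 48 h and 11.7 ± 0.623 at 72 h (-4.15 ± 0.26 (SE)). KDR is also an endothelial marker, and the 6 markers of that type summed to 36.6 to 37.9 CPM without Dox and 2.0 to 3.27 at 24 h. Of these, PECAM1 was also called lower against No Dox, TEK was not called, and VWF was at 0. CYP4B1 and LAPTM5 had the same low point at 24 h, at 0.631 ± 0.107 and 0.842 ± 0.215 CPM against 42.9 ± 1.43 and 35.7 ± 1.87 without Dox. KRT13, a keratin of stratified mucosa, was at 1.2 ± 0.425 CPM at 24 h, not called against No Dox, and at 87.3 ± 9.29 CPM at 72 h. VGLL3 was also lower at 24 h than later (-1.28), at 71.6 ± 6.79 and 145 ± 8.93 CPM at 48 and 72 h.

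**Figure D5:**
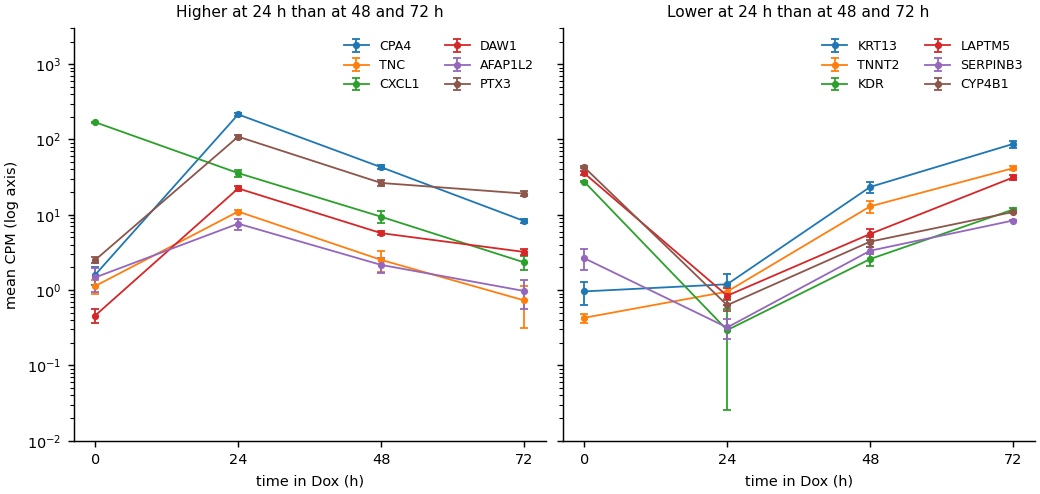
Mean CPM (log axis) by time in Dox (0, 24, 48 and 72 h) of the 6 genes called highest (left) and the 6 called lowest (right) at 24 h against the mean of 48 and 72 h, among genes reaching 5 CPM in 1 of the groups. Error bars are SD of 3 samples. CPA4, TNC, DAW1, AFAP1L2 and PTX3 are highest at 24 h, and KDR, LAPTM5, SERPINB3 and CYP4B1 are lowest there.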

How the data were processed

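Poly(A)-selected RNA was sequenced from 12 samples, and the 3 without Dox and the 3 at 24 h were grouped by their GEO titles. The authors aligned reads with STAR to GRCh38 (GENCODE 22) and deposited RSEM expected counts, TPM and effective lengths per gene, with no tool versions given in the sources used here. The deposited FPKM values were not used. Expected counts were rounded to whole numbers. RSEM divides reads that fit several genes, and the deposited posterior SD of the count, its error from that division, was over 5% of the count for 597 tested genes (209 of them called), which are less certain. Gene names and coordinates are those of GENCODE 44 for GRCh38, where 56321 of 60483 rows were matched by ID and 393 by transcripts, and promoter sequences are from RefSeq (GRCh38.p14).

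Counts of all 12 samples were fitted together by the quasi-likelihood test of edgeR 4.0.16 (R 4.3.3, limma 3.58.1) after filterByExpr and TMM scaling, with a mean per group and Benjamini-Hochberg adjustment over the 14822 genes kept. Variation among samples of a group beyond counting error was 5.71% (coefficient, common estimate). A gene was called at an adjusted p under 0.05 with at least 2-fold change. CPM are counts scaled by library size and TMM factor. Floors were 3 counts over a group (0.0519 CPM without Dox, 0.0515 CPM at 24 h), and the intervals of count ratios are exact, at 95%, and cover counting error only. The code was tested on simulated data. The comparison and the 78 gene lists were chosen with earlier results of these data known, so no list is an independent test, and lists are described by counts and medians. Genes were named by rule: a panel of 28 genes of the pathway, up to 6 called members of each list by size of change and up to 2 that moved against the list, the 12 highest and 12 lowest changes at 5 CPM or more, the 8 largest gains and losses of CPM, the 6 highest and 6 lowest lncRNAs and genes against later times, and the 8 narrowest intervals around 0. Some genes and lists of this rule are not reported here. Alternatives were DESeq2 1.42.0, fits with effective lengths, other scaling and filters, glmTreat, the compared samples alone, each sample left out and a replicate block.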

Additional observations from a re-analysis of the deposited data

Results flagged for a closer look

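For 12 genes the level at 24 h lay away from the mean of 48 and 72 h by a test of that difference in edgeR, so that the response at 24 h was not the response of later times. They were the 6 genes of largest difference in each direction among called genes reaching 5 CPM at 1 of these times. The log2 difference of 24 h minus later was 3.51 for CPA4, 3.04 for TNC, 2.94 for CXCL1, 2.38 for DAW1, 2.37 for AFAP1L2 and 2.28 for PTX3. It was -5.28 for KRT13, -4.59 for TNNT2, -4.15 for KDR, -4.0 for LAPTM5, -4.0 for SERPINB3 and -3.45 for CYP4B1. AFAP1L2, an adaptor of SRC signalling, was at 1.47 ± 0.517, 7.62 ± 1.25, 2.16 ± 0.483 and 0.974 ± 0.404 CPM at 0, 24, 48 and 72 h. SERPINB3, an inhibitor of cathepsins, was at 2.65 ± 0.821, 0.319 ± 0.0921, 3.33 ± 0.35 and 8.4 ± 0.216 CPM. The call of TNNT2, cardiac troponin T, against No Dox was lost without 24 h replicate 2 and with glmTreat.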

How the results depend on the processing

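No result changed direction under any alternative that was run. Calls of 24 h against No Dox numbered 1773 higher and 2618 lower. Without the fold threshold they were 5495 and 5647, and with at least 5 CPM in a group 1200 and 1636. Leaving out each sample gave 1793 to 1847 higher and 2594 to 2742 lower. The other settings stayed within 1.5 times of the reported counts, among them DESeq2 (1826 and 2805), upper-quartile scaling (1622 and 2775) and glmTreat (1246 and 1795). Against the mean of 48 and 72 h, calls numbered 361 higher and 791 lower, 142 and 388 with at least 5 CPM, 85 and 234 with glmTreat, and 4161 and 4071 without the fold threshold. Leaving out each sample gave 338 to 389 and 745 to 816 there. The median change of all genes lay between -0.08 and 0 in all settings.

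The replicate numbers in the titles were tried as a replicate block, which gave 1767 higher and 2613 lower (354 and 782 against later times). Deviations of same-numbered samples had correlations of -0.23 to 0.39 over 18 pairs, 4 of them above 0.1, and of -0.15 to 0.05 for the 3 pairs of No Dox and 24 h. Over 36 pairs of other numbers they were -0.45 to 0.30, with 11 above 0.1. The sources used here do not say whether same-numbered samples shared more than a number, and these correlations cannot decide it. With 3 samples a group, the exact permutation test of a share cannot go below p = 0.1, and genes under about 1 CPM have wide intervals.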
